A study of Mus musculus with 12 samples.

Results

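Integrins are receptors of an α and a β chain that span the cell membrane and bind matrix outside and adaptor proteins inside. Laminins are trimers of an α, a β and a γ chain that form the sheet of the basement membrane under an epithelium. The genes of both families were taken by symbol, as Itga, Itgb, Lama, Lamb or Lamc followed by a number or v, leaving out genes for integrin-binding proteins. This gave 25 of the 18929 genes listed, namely 17 integrin genes (11 α and 6 β) and 8 laminin genes, and all 25 were listed for both mutants. Itga8, Itga11, Itgb2, Itgb2l, Itgb3, Lama1, Lama2 and Lamc3 had no row and were not analysed here.

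RNA-Seq counts were obtained from 12 libraries of murine jejunal enteroids, which are epithelial cultures that form crypt-like buds, grown for 5 days in ENR medium. The libraries were 4 of Hdac1-deficient enteroids, 4 of Hdac2-deficient enteroids and 4 of control enteroids, which carry villin-Cre alone. HDAC1 and HDAC2 are nuclear enzymes that remove acetyl groups from histones. Floxed alleles were deleted by a villin-Cre transgene, which acts in intestinal epithelium, in mice of mixed C57BL/6J, 129SV and CD1 background. Crypts came from 1 mouse of each genotype and were embedded in Matrigel, itself a basement membrane extract. No source says that the 4 libraries of a group are separate cultures, so the p-values measure only the spread between these libraries, which may be technical, and genotype cannot be told apart from mouse and line.

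Depth lay between 20693200 and 30658628 counts per library. Hdac1 RNA was at 90.6 ± 2.76 CPM (counts per 1000000 counts; SD, n = 4) in control, 4.23 ± 0.834 in the Hdac1 mutant and 75.3 ± 4.39 in the Hdac2 mutant. Hdac2 RNA was at 137.0 ± 3.85, 111.7 ± 3.83 and 75.9 ± 2.89 CPM in the same order. The counts cover the whole gene and not the deleted exons alone. All 7 epithelial markers were listed, at a sum of 5470 to 5733 CPM in control, 5772 to 5865 CPM in the Hdac1 mutant and 6813 to 7025 CPM in the Hdac2 mutant. In contrast, Cd3e, Adgre1 and Itgax among 10 leukocyte markers, Acta2, Dcn, Des, Lum, Myh11 and Thy1 of 9 mesenchymal markers, and Cdh5, Emcn and Kdr of 6 endothelial markers were missing from at least 1 mutant's list.

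In an epithelium, integrin α6β4 anchors cells to laminin through hemidesmosomes, and α3β1 is the other main laminin receptor, joined to actin. The laminin that holds the α3 and β3 chains is the usual partner of hemidesmosomes, and trimers with the α5 chain are the main laminins under villus epithelium. In the gut the mesenchyme also supplies laminin chains, but enteroids are grown without it.

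Levels can be compared between genes only per length, as RPKM (CPM per kilobase of merged exons). Itgb1, the common β chain, had the highest level in every group, at 73.5 ± 2.49 RPKM in control enteroids, 60.7 ± 1.33 RPKM in the Hdac1 mutant and 70.3 ± 2.55 RPKM in the Hdac2 mutant. In control enteroids Itga6 (27.9 ± 1.36 RPKM), Itga3 (26.1 ± 0.727 RPKM) and Itgb4 (17.4 ± 1.06 RPKM) followed, and the libraries of Itga6 and Itga3 overlapped. Both mutants had Itga3 ahead of Itga6 without overlap (35.8 ± 2.54 against 24.1 ± 0.955 RPKM in Hdac1-deficient, 36.2 ± 0.763 against 27.9 ± 0.56 RPKM in Hdac2-deficient). Lamb3 (8.69 ± 0.264 RPKM) was the highest laminin chain in control enteroids, above Lamc1 (6.29 ± 0.571 RPKM) and Lama5 (4.53 ± 0.548 RPKM). At the lower end, Itga5, Itga1, Lamb1, Itga7 and Itga10 lay between 0.314 and 0.61 RPKM in control enteroids, and the libraries overlapped between neighbours from Itga1 down to Itga10. Lama3 was at 0.11 ± 0.0252 RPKM, overlapping Itga2b at 0.0771 ± 0.018 RPKM.

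**Figure D1:**
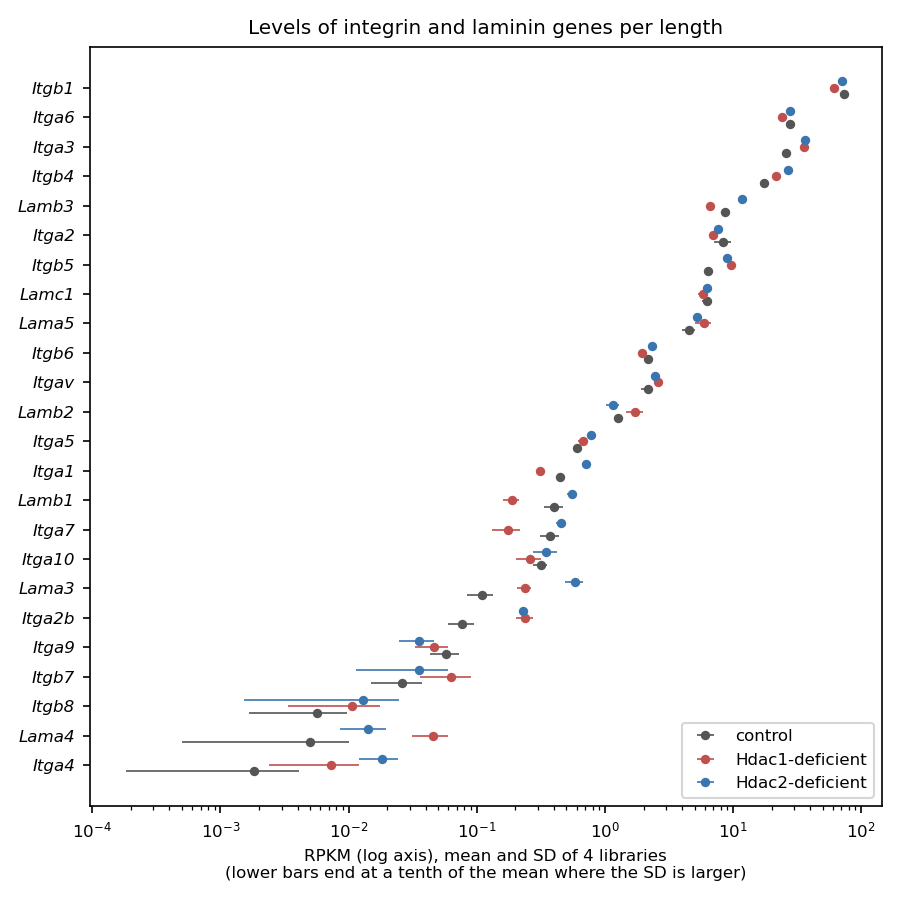
Levels of the genes in RPKM on a log axis, as the mean and SD of 4 libraries per group, in the order of the control level. Itgb1 is highest in each group, and wide gaps between groups are seen at Lama3, Lama4, Itga2b, Lamb1 and Itga7.

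Of the 25 genes, 21 passed the filter on low counts for Hdac1 against control, 20 for Hdac2 against control and 21 for the direct comparison of the mutants. Itga4, Itgb7, Itgb8 and Lama4 failed it in each, and Itga9 also for Hdac2. A gene was said to have risen or fallen at an adjusted p of at most 0.05 by edgeR's quasi-likelihood test, adjusted by Benjamini-Hochberg over all tested genes. In Hdac1-deficient enteroids 8 of the 21 rose and 6 fell, where 32.7% and 31.9% of all tested genes did. In Hdac2-deficient enteroids 11 of the 20 rose, where 31.4% of all genes did, and 0 fell, where 30.9% of all genes did (0 also at an unadjusted p under 0.05 and by DESeq2). Without control replicate 1, Itga2 and Itgb1 fell for Hdac2, by 0.22 (adjusted p = 4e-05) and 0.08 (adjusted p = 0.024) on the log2 scale, and Itgb1 also fell with scaling by library size alone (adjusted p = 0.035 by edgeR's test). Directly compared, 1 of 21 genes was higher in the Hdac1 mutant than in the Hdac2 mutant (22.3% of all genes) and 10 were lower (23.7% of all genes). The median log2 fold change of the tested genes was -0.08 for Hdac1, 0.33 for Hdac2 and -0.21 for Hdac1 against Hdac2, with 0.00, 0.00 and 0.01 over all tested genes. Both mutants were set against the same 4 control libraries, so their values are given side by side.

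Among the integrin and laminin genes tested, the changes of more than 2-fold were those of Itga1, Itga2b, Itga7, Lama3 and Lamb1. In Hdac1-deficient enteroids Itga2b and Lama3 rose by more than 2-fold (2 of 21, with 6.87% of all genes) and Itga7 and Lamb1 fell by more than 2-fold (2 of 21, with 3.71% of all genes). In Hdac2-deficient enteroids Itga2b and Lama3 rose by more than 2-fold (2 of 20, with 5.45% of all genes) and 0 fell so far (2.84% of all genes). The direct comparison had Itga1, Itga7, Lama3 and Lamb1 lower in Hdac1-deficient enteroids by more than 2-fold (4 of 21, with 2.89% of all genes) and 0 higher (2.74% of all genes). Both counts of 0 were also 0 with DESeq2, and at an unadjusted p under 0.05.

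**Figure D2:**
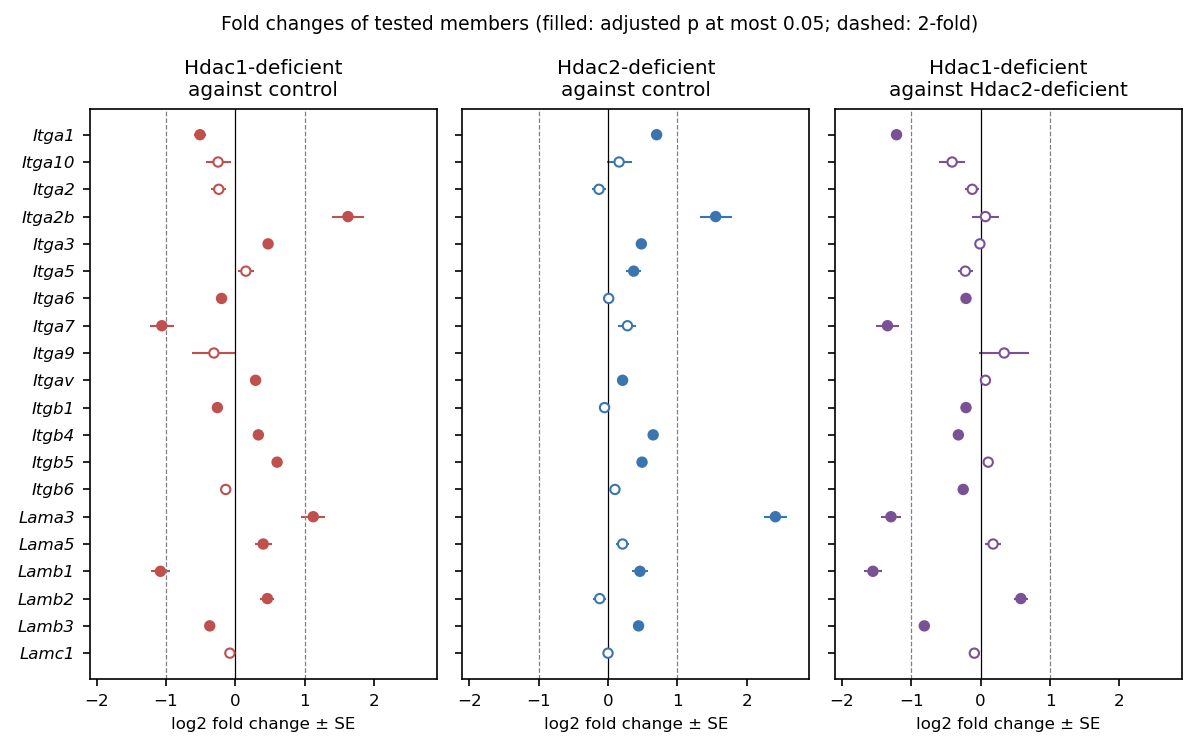
Log2 fold changes with their SE for the genes tested, by comparison (filled points, adjusted p of at most 0.05, dashed lines, 2-fold). Points of Hdac2-deficient enteroids lie mostly right of 0, up to 2.41 for Lama3, and those of the direct comparison mostly left of it, down to -1.55 for Lamb1.

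Among the laminin α chains, Lama5 RNA far exceeded Lama3 RNA and, of these 2, Lama3 had the larger fold changes. Lama3 encodes the α3 chain. It was at 0.838, 1.49, 1.26 and 1.13 CPM in the control libraries, at 2.96, 2.43, 2.56 and 2.21 CPM in Hdac1-deficient and at 4.76, 6.84, 7.07 and 6.33 CPM in Hdac2-deficient libraries. The 3 groups did not overlap, with control lowest and Hdac2-deficient highest. Lama3 rose with a log2 fold change of 1.12 (SE 0.17, adjusted p = 1.2e-05) in Hdac1-deficient and 2.41 (SE 0.16, adjusted p = 8e-11) in Hdac2-deficient enteroids by edgeR's quasi-likelihood test, and the mutants differed by -1.29 (SE 0.14, adjusted p = 1.7e-08). The Hdac1 value fell short of 2-fold, at 0.98, without control replicate 1. As bulk RNA was measured, fewer cells of a type and less RNA per cell cannot be told apart here or below.

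Lama5 (chr2:180176373-180225859, minus strand), the α5 chain, was at 43.1, 57.7, 54.3 and 51.3 CPM in control, 70.5, 55.2, 65.6 and 77.7 CPM in Hdac1-deficient and 54.7, 58.4, 63.4 and 60.7 CPM in Hdac2-deficient libraries. Control overlapped both mutants. Lama5 rose in Hdac1-deficient enteroids by 0.40 on the log2 scale (SE 0.12, adjusted p = 0.025 by edgeR's test), but not in every fit that left out 1 library, as the adjusted p was 0.054 without control replicate 1, 0.061 without Hdac1-deficient replicate 1 and 0.055 without Hdac1-deficient replicate 4. For Hdac2 the difference was 0.21 (SE 0.09, adjusted p = 0.058), and DESeq2 gave an adjusted p of 0.0069. This value also passed without control replicate 1 (adjusted p = 0.019), control replicate 2 (0.01) or Hdac2-deficient replicate 1 (0.031). Per length, Lama3 made up 2.33 ± 0.263% of the summed α chain RPKM in control, 3.87 ± 0.672% in the Hdac1 mutant and 9.97 ± 1.13% in the Hdac2 mutant, with nearly all of the rest being Lama5. Lama4, the α4 chain known from vessels and muscle, was close to absent, with 1, 4, 2 and 0 reads in control, 9, 23, 16 and 16 in Hdac1-deficient and 6, 6, 2 and 3 in Hdac2-deficient libraries. The depth-scaled ratio to control was 8.94 for Hdac1 (95% exact interval 4.1 to 23.1) and 2.79 for Hdac2 (1.1 to 7.96), intervals that cover counting error only. With no filter on low counts Lama4 was higher for Hdac1 by 3.06 on the log2 scale (SE 0.5, adjusted p = 1e-05 by edgeR's test).

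The laminin β chains moved apart. Lamb1 (chr12:31265234-31329644, plus strand), the widespread β1 chain, was at 3.66, 4.28, 4.74 and 3.26 CPM in control, 1.73, 1.72, 2.26 and 1.74 CPM in Hdac1-deficient and 5.83, 4.92, 5.32 and 5.77 CPM in Hdac2-deficient libraries. The groups did not overlap, with Hdac1-deficient below and Hdac2-deficient above control. Lamb1 fell by 1.08 (SE 0.14, adjusted p = 1.7e-06) on the log2 scale in Hdac1-deficient and rose by 0.46 (SE 0.11, adjusted p = 0.0016) in Hdac2-deficient enteroids, and the mutants differed by -1.55 (SE 0.13, adjusted p = 3.2e-10 by edgeR's test), the largest difference between the mutants among the 21 genes tested. Without control replicate 3 the Hdac1 value was -0.99, just under 2-fold.

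Lamb3 (chr1:193207699-193343878, plus strand), the β3 chain of the hemidesmosome laminin, moved in the same pair of directions at a higher level. Its values were 57.6, 59.8, 55.9 and 56.3 CPM in control, 43.4, 44.7, 45.2 and 42.2 CPM in Hdac1-deficient and 73.2, 79.5, 77.4 and 78.9 CPM in Hdac2-deficient libraries. Again no groups overlapped. Lamb3 fell by 0.37 (SE 0.04, adjusted p = 1.1e-07) on the log2 scale in Hdac1-deficient and rose by 0.44 (SE 0.04, adjusted p = 2.5e-09) in Hdac2-deficient enteroids, a difference of -0.81 (SE 0.04, adjusted p = 1.8e-15 by edgeR's test).

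Lamb2 (chr9:108479736-108490530, plus strand), the β2 chain, went the other way. It was at 8.28, 7.57, 6.96 and 7.85 CPM in control, 11.3, 9.26, 9.11 and 12.2 CPM in Hdac1-deficient and 6.27, 6.37, 7.74 and 7.77 CPM in Hdac2-deficient libraries. Hdac1-deficient libraries lay above all others, and control overlapped Hdac2-deficient. Lamb2 rose by 0.46 on the log2 scale (SE 0.10, adjusted p = 0.00033) in Hdac1-deficient enteroids, was at -0.12 (SE 0.09, adjusted p = 0.27) in Hdac2-deficient enteroids and was the 1 gene higher in the Hdac1 mutant than in the Hdac2 mutant (0.58, SE 0.10, adjusted p = 3.8e-05 by edgeR's test). Per length, Lamb3 held 83.9 ± 0.395% of β chain RPKM in control, 77.7 ± 2.68% in the Hdac1 mutant and 87.3 ± 0.969% in the Hdac2 mutant, and Lamb2 held 12.2 ± 0.829%, 20.1 ± 2.86% and 8.63 ± 0.838%.

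The promoter windows of Lamb1 and Lamb3 are shown because both RNAs moved in opposite directions in the mutants. Each window runs from 250 bases before to 50 bases after a RefSeq start site on GRCm38.p6, and capitals mark a GC box on either strand. Lamb1 is at chr12:31265043-31265342 and Lamb3, for the first of its 2 windows, at chr1:193301744-193302043, both on the plus strand.
Lamb1: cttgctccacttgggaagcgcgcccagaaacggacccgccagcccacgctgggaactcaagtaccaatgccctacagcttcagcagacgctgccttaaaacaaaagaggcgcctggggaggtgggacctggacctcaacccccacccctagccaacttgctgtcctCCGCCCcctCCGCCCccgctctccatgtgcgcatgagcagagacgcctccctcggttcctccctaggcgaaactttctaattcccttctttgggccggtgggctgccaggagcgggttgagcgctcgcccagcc
Lamb3: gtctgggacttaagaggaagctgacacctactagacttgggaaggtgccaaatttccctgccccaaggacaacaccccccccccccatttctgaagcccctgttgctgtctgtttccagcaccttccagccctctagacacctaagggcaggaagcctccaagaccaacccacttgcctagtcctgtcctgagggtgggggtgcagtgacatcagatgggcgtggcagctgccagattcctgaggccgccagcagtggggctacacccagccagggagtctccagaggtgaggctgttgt
The Lamb1 window held 18 CG dinucleotides and 2 GC boxes, both read on the other strand. The Lamb3 window held 2 CG dinucleotides and no GC box. The median over 32851 windows of 300 bases was 7 CG dinucleotides.

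Lamc1 (chr1:153218922-153332786, minus strand), the common γ1 chain, was at 45.5, 56.4, 54.4 and 51.7 CPM in control, 51.3, 45.7, 44.2 and 53.1 CPM in Hdac1-deficient and 49.1, 52.7, 51.9 and 53.1 CPM in Hdac2-deficient libraries, and the groups overlapped. Its log2 fold changes were -0.08 (SE 0.07, adjusted p = 0.3) and 0.00 (SE 0.06, adjusted p = 0.97 by edgeR's test). This depended on control replicate 1, without which Lamc1 was lower in Hdac1-deficient enteroids (-0.15, adjusted p = 0.025).

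Lama3 and Lamb3 thus both rose in Hdac2-deficient enteroids, whereas in Hdac1-deficient enteroids Lama3 rose and Lamb3 fell. Their levels stayed far from equal, since Lama3 RPKM was 0.0126 ± 0.00271 of Lamb3 RPKM in control, 0.0356 ± 0.0044 in the Hdac1 mutant and 0.0496 ± 0.00701 in the Hdac2 mutant. This ratio was chosen after the values were seen and was not tested.

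**Figure D3:**
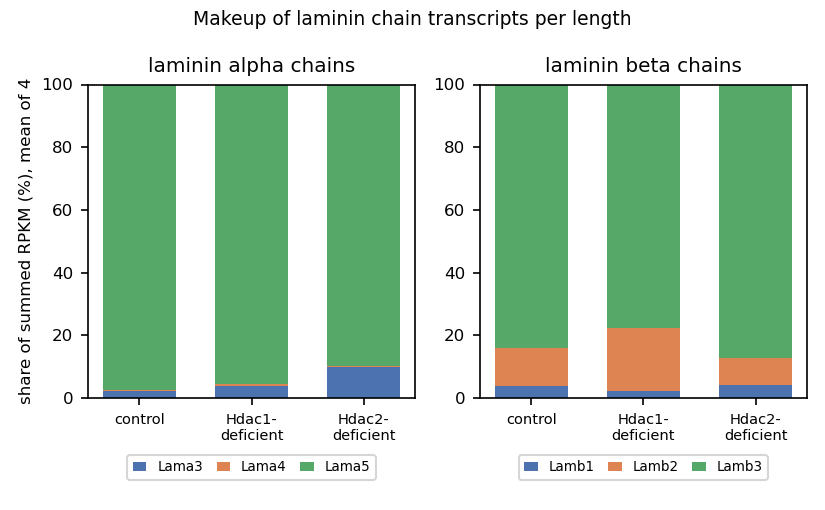
Mean share of each laminin chain gene in the summed RPKM of its α or β family, in percent, by group. Lama3 reaches 9.97% in Hdac2-deficient enteroids and Lamb2 reaches 20.1% in Hdac1-deficient enteroids.

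Among the laminin receptors, Itga3 and Itgb4 rose in both mutants, while Itga6 and Itgb1 fell in Hdac1-deficient enteroids and did not pass in Hdac2-deficient ones. Itga3 (chr11:95044474-95076801, minus strand) encodes the α3 chain. It was at 144.1, 154.2, 148.7 and 148.9 CPM in control, 216.0, 193.5, 190.4 and 218.0 CPM in Hdac1-deficient and 202.2, 203.9, 209.7 and 211.1 CPM in Hdac2-deficient libraries. Control lay below both mutants, which overlapped each other. Itga3 rose by 0.47 (SE 0.04, adjusted p = 1.2e-08) on the log2 scale in Hdac1-deficient and 0.48 (SE 0.03, adjusted p = 1.1e-11) in Hdac2-deficient enteroids by edgeR's test, and the mutants differed by -0.01 (SE 0.04).

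Itgb4 (chr11:115974709-116008412, plus strand), the β4 chain of hemidesmosomes, was at 112.1, 126.3, 128.8 and 120.5 CPM in control, 152.3, 146.9, 147.3 and 160.2 CPM in Hdac1-deficient and 183.8, 193.7, 191.8 and 188.8 CPM in Hdac2-deficient libraries. The groups did not overlap, in the order control, Hdac1-deficient, Hdac2-deficient. Itgb4 rose by 0.33 (SE 0.04, adjusted p = 1e-06) and 0.65 (SE 0.04, adjusted p = 5.9e-12) on the log2 scale, with a difference between the mutants of -0.32 (SE 0.04, adjusted p = 8e-08 by edgeR's test). B230344G16Rik on the opposite strand shares 7.66% of the Itgb4 exon bases, and whether strand was used in counting is not given in the sources used here.

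Itga6 (chr2:71745616-71858416, plus strand), the α6 partner of both β4 and β1, was at 238.7, 256.2, 266.5 and 245.3 CPM in control, 224.6, 223.8, 215.4 and 206.2 CPM in Hdac1-deficient and 247.9, 255.3, 257.4 and 247.6 CPM in Hdac2-deficient libraries. Hdac1-deficient libraries lay below all others. Itga6 fell by 0.20 (SE 0.04, adjusted p = 0.00014) on the log2 scale in Hdac1-deficient enteroids and was at 0.01 (SE 0.03, adjusted p = 0.75) in Hdac2-deficient enteroids. Itgb1 (chr8:128685654-128733200, plus strand) followed the same pattern, at 287.2, 310.1, 305.8 and 296.8 CPM in control, 248.0, 255.3, 242.6 and 245.6 CPM in Hdac1-deficient and 292.3, 299.2, 278.3 and 278.5 CPM in Hdac2-deficient libraries. The Hdac1-deficient libraries were again the lowest. Itgb1 fell by 0.26 (SE 0.03, adjusted p = 7.9e-07) on the log2 scale in Hdac1-deficient enteroids. For Hdac2 it was at -0.05 (SE 0.03, adjusted p = 0.17 by edgeR's test), and the adjusted p was 0.024 without control replicate 1. The mutants differed by -0.21 in both genes (SE 0.03, adjusted p = 1.3e-05 for Itga6 and 4.5e-06 for Itgb1).

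Itga7 (chr10:128933818-128958282, plus strand), a laminin receptor chain best known from muscle, was at 2.62, 3.71, 3.12 and 2.63 CPM in control, 1.09, 1.91, 1.34 and 1.34 CPM in Hdac1-deficient and 3.5, 3.44, 3.63 and 4.03 CPM in Hdac2-deficient libraries. The Hdac1-deficient libraries were below all others. Itga7 fell by 1.06 (SE 0.17, adjusted p = 2e-05) on the log2 scale in Hdac1-deficient enteroids, and the mutants differed by -1.34 (SE 0.16, adjusted p = 1e-07 by edgeR's test). For Hdac2 the difference from control was 0.28 (SE 0.13, adjusted p = 0.068), with an adjusted p of 0.016 without control replicate 2. The Hdac1 change fell short of 2-fold without control replicate 2 (-0.95) or without Hdac1-deficient replicate 1 (-0.96).

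Per length, Itgb4 held 17.5 ± 0.479% of β chain RPKM in control, 23 ± 0.824% in the Hdac1 mutant and 24.9 ± 0.774% in the Hdac2 mutant. Itgb1 held 73.9 ± 0.363%, 64.6 ± 1.02% and 64.8 ± 0.858%, and Itga3 held 39.3 ± 1.18%, 50.2 ± 1.89% and 47.1 ± 0.714% of the α chains.

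Of the collagen receptor chains, Itga1 changed and its neighbour Itga2 did not pass the test. Itga1 (chr13:114953096-115101964, minus strand) encodes the α1 chain, which binds basement membrane collagen. It was at 8.08, 8.17, 9.02 and 7.81 CPM in control, 5.89, 6.22, 5.54 and 5.37 CPM in Hdac1-deficient and 13.3, 14.7, 12.7 and 12.8 CPM in Hdac2-deficient libraries. The groups did not overlap, with Hdac1-deficient lowest and Hdac2-deficient highest. Itga1 fell by 0.51 (SE 0.08, adjusted p = 2.2e-05) on the log2 scale in Hdac1-deficient and rose by 0.70 (SE 0.07, adjusted p = 3.5e-08) in Hdac2-deficient enteroids, and the mutants differed by -1.21 (SE 0.08, adjusted p = 7.8e-13 by edgeR's test). Itga1, Lamb1 and Lamb3 were the 3 genes that fell in one mutant and rose in the other.

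Itga2 (chr13:114833081-114932100, minus strand), the α2 collagen receptor chain, was at 48.0, 69.1, 63.3 and 58.6 CPM in control, 55.1, 50.1, 44.9 and 50.2 CPM in Hdac1-deficient and 54.7, 54.9, 55.2 and 52.4 CPM in Hdac2-deficient libraries. Control overlapped both mutants through its replicate 1. The log2 fold changes were -0.24 (SE 0.11, adjusted p = 0.096) and -0.13 (SE 0.10, adjusted p = 0.33) by edgeR's test, and without control replicate 1 both passed, at -0.34 (adjusted p = 0.00017) and -0.22 (adjusted p = 4e-05). Control replicate 1 was the lowest control library for 12 of the 20 genes with a mean of at least 1 CPM in some group. Hdac2-deficient replicate 1 was the lowest of its own group for 11 of the same 20. The share over all genes was not counted. Itga10, another collagen receptor chain, was at 1.81, 1.63, 1.33 and 1.75 CPM in control, 1.2, 1.04, 1.47 and 1.7 CPM in Hdac1-deficient and 1.95, 1.29, 2.18 and 1.82 CPM in Hdac2-deficient libraries. All groups overlapped, and Itga10 did not pass against control (-0.25, SE 0.18, adjusted p = 0.24, and 0.16, SE 0.18, adjusted p = 0.46). The mutants differed by -0.41 (SE 0.19, adjusted p = 0.085), which passed without Hdac1-deficient replicate 4 (adjusted p = 0.038) or Hdac2-deficient replicate 2 (adjusted p = 0.027). The level of Itga10 is uncertain, as Gm42957 on the same strand shares 33.5% of its exon bases.

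**Figure D4:**
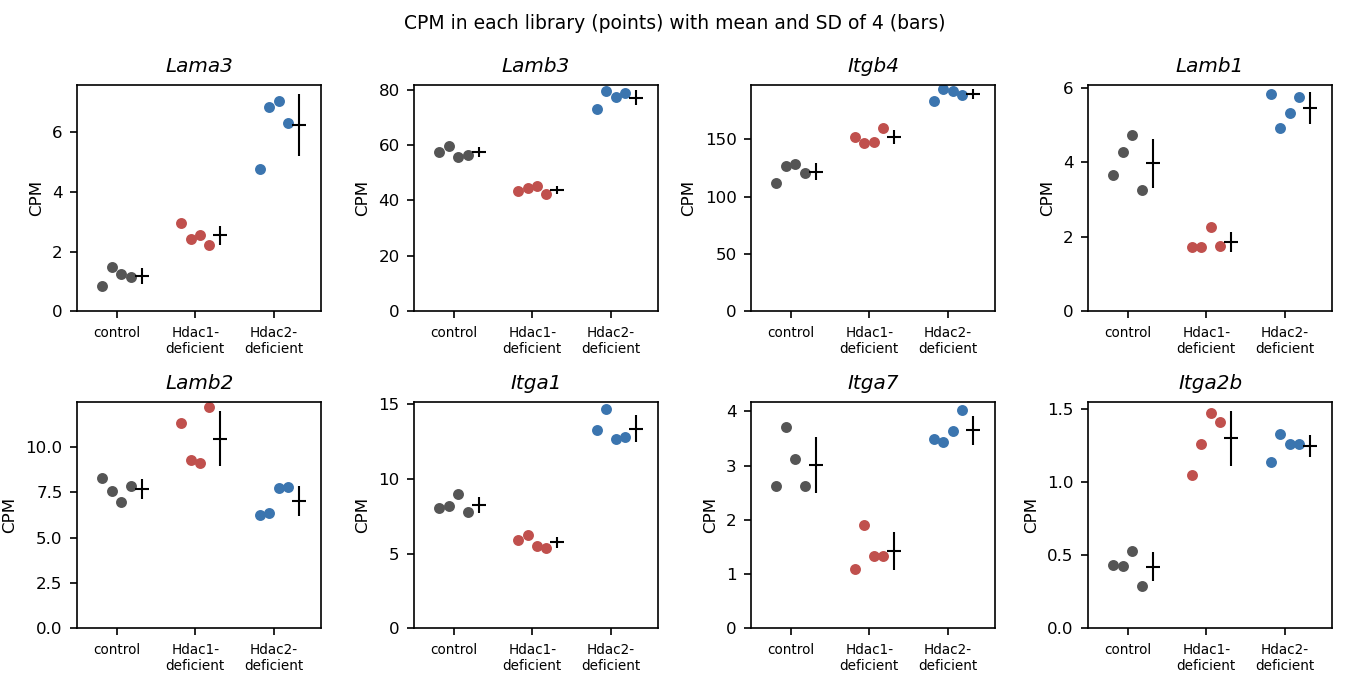
CPM in each of the 12 libraries (points) with the mean and SD of 4 (bars) for 8 genes. Itga1, Itgb4, Lama3, Lamb1 and Lamb3 have 3 groups that do not overlap, Itga7 has the Hdac1-deficient libraries below the rest, and Itga2b has control below both mutants.

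Of the chains that bind fibronectin and other RGD ligands, Itgav and Itgb5 rose in both mutants and Itga5 rose in Hdac2-deficient enteroids. Itgav, the αv chain, was at 21, 26.0, 24.2 and 21.2 CPM in control, 29.5, 28.6, 26.3 and 27.5 CPM in Hdac1-deficient and 26.8, 27.9, 25.6 and 25.9 CPM in Hdac2-deficient libraries. The Hdac1-deficient libraries lay above control, and the Hdac2-deficient ones overlapped it. Itgav rose by 0.29 (SE 0.06, adjusted p = 0.00061) and 0.21 (SE 0.06, adjusted p = 0.0066) on the log2 scale. Its partner Itgb5 was at 23.4, 22.3, 23.2 and 22 CPM in control, 34.5, 33.2, 33.1 and 35.6 CPM in Hdac1-deficient and 32.4, 31.1, 28.8 and 34.1 CPM in Hdac2-deficient libraries. Both mutants lay above control for Itgb5, which rose by 0.60 (SE 0.05, adjusted p = 8.3e-10) and 0.49 (SE 0.05, adjusted p = 5.5e-08 by edgeR's test). The mutants differed by 0.11 (SE 0.05, adjusted p = 0.072), which passed without control replicate 1 (0.12, adjusted p = 0.046) or Hdac2-deficient replicate 4 (0.15, adjusted p = 0.024).

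Itgb6, the epithelial partner of αv, was at 14.8, 16.1, 16.4 and 14.4 CPM in control, 14.1, 14.9, 13.7 and 12.7 CPM in Hdac1-deficient and 16.3, 16.8, 16.6 and 16.1 CPM in Hdac2-deficient libraries. Control overlapped both mutants, and the mutants lay apart. The values against control were -0.14 (SE 0.07, adjusted p = 0.069) and 0.10 (SE 0.06, adjusted p = 0.13), and the mutants differed by -0.25 (SE 0.06, adjusted p = 0.0019 by edgeR's test). The Hdac1 value passed without control replicate 1 (adjusted p = 0.046), control replicate 4 (0.048) or Hdac1-deficient replicate 2 (0.034). Itga5, the fibronectin receptor chain, was at 2.72, 3.04, 3.15 and 3.13 CPM in control, 3.45, 3.46, 2.92 and 3.41 CPM in Hdac1-deficient and 3.76, 3.75, 3.78 and 4.16 CPM in Hdac2-deficient libraries. It rose by 0.37 (SE 0.11, adjusted p = 0.0071) on the log2 scale in Hdac2-deficient enteroids, above all other libraries, and was at 0.15 (SE 0.12, adjusted p = 0.25) in Hdac1-deficient enteroids.

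Itga2b (chr11:102453297-102470122, minus strand), the αIIb chain known from platelets, rose in both mutants from a low level. It was at 0.436, 0.424, 0.531 and 0.292 CPM in control, 1.05, 1.26, 1.47 and 1.41 CPM in Hdac1-deficient and 1.14, 1.33, 1.26 and 1.26 CPM in Hdac2-deficient libraries. All mutant libraries were above all control libraries. The log2 fold changes were 1.62 (SE 0.23, adjusted p = 4.2e-06) and 1.55 (SE 0.23, adjusted p = 7.4e-06 by edgeR's test), and the mutants differed by 0.07 (SE 0.19, adjusted p = 0.8). Its usual β partner, Itgb3, had no row, and 0 of 5 platelet markers (Pf4, Ppbp, Gp9, Gp1ba and Gp6) were listed for both mutants.

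The promoter windows of Itga1 and Itga2b are shown as those of the integrin that moved in opposite directions and of the integrin that rose by more than 2-fold in both mutants. They are at chr13:115101915-115102214 and chr11:102469834-102470133 on GRCm38.p6, both on the minus strand and written 5′ to 3′.
Itga1: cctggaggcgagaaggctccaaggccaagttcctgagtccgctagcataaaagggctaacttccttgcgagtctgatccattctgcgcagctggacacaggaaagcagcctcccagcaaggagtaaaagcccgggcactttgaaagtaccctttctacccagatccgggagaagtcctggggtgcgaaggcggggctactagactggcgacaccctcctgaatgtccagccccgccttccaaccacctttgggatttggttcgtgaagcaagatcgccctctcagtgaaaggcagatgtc
Itga2b: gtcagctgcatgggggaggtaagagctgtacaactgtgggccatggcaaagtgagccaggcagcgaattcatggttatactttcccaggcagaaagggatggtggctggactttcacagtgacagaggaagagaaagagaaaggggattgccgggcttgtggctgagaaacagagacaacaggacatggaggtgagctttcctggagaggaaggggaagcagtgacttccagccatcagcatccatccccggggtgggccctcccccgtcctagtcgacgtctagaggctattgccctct
The Itga1 window held 12 CG dinucleotides, the Itga2b window held 6, and neither held any of the motifs searched. RefSeq windows were found for 18 of the 25 genes, 21 windows in all, and Itga6, Itga7, Itgb4, Lama3, Lama4 and Lamc1 were among the genes with none. On both strands, the GC box GGGCGG was in 10 of the 21 windows (47.6%, with 35.7% of all windows) and the AP-1 site TGANTCA in 2 (9.52%, with 7.81% of all windows). The GATA site GATAA and the TATA box TATAAA were in 0 of the 21, with 25.4% and 13.6% of all windows, which says only that these letters are not in these windows.

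The remaining integrins were near the limit of detection, where 3 counts correspond to 0.0979 to 0.145 CPM. Itga9 ranged from 0.302 to 0.566 CPM in control, 0.227 to 0.471 CPM in the Hdac1 mutant and 0.194 to 0.369 CPM in the Hdac2 mutant. Itga4, known from leukocytes, had 0 to 2 reads in control, 0 to 4 in Hdac1-deficient and 4 to 9 in Hdac2-deficient libraries. Its depth-scaled ratio to control was 9.57 (95% exact interval 2.92 to 49.5, counting error only) for Hdac2. Cerkl on the opposite strand shares 8.04% of the Itga4 exon bases, and whether strand was used in counting is not given. Itgb7, the leukocyte partner of Itga4, and Itgb8 had at most 7 reads in any library. The summed level of leukocyte markers was 2.34 to 2.82 CPM in control, 3.75 to 4.82 CPM in the Hdac1 mutant and 4.34 to 5.16 CPM in the Hdac2 mutant. Of the 10 markers 6 were listed for both mutants. Itgam made up much of the sum in the mutants, while in control Cd68 was above Itgam. Itgam, the αM integrin chain of myeloid cells, whose symbol is outside the rule used here, rose from 0.835 ± 0.0697 to 2.02 ± 0.451 CPM in the Hdac1 mutant and 2.68 ± 0.539 CPM in the Hdac2 mutant, and Ptprc, which marks all leukocytes, lay between 0.0 and 0.174 CPM. The macrophage markers Cd68 and Csf1r differed from Itgam in their order of levels. Cd68 was at 1.10 ± 0.135 CPM in control, 0.947 ± 0.0778 CPM in the Hdac1 mutant (log2 fold change -0.21, SE 0.19, adjusted p = 0.34) and 1.5 ± 0.124 CPM in the Hdac2 mutant (0.45, SE 0.18, adjusted p = 0.035 by edgeR's test). Csf1r was at 0.412 ± 0.197, 0.729 ± 0.0629 and 0.146 ± 0.0773 CPM in the same order, a rise for Hdac1 (0.81, SE 0.29, adjusted p = 0.02 by edgeR's test), and was not tested for Hdac2. The part of these cells in the values of Itga4 and Itgb7 was not tested.

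Markers of crypt and villus cells also moved with the groups. The summed level of 7 crypt stem cell markers was 3660 to 3859 CPM in control, 2101 to 2446 CPM in the Hdac1 mutant and 1766 to 1969 CPM in the Hdac2 mutant, and that of 9 villus enterocyte markers was 8140 to 8669, 16410 to 18583 and 12949 to 14532 CPM. Of the crypt markers, 2 rose and 5 fell for Hdac1 and 1 rose and 5 fell for Hdac2, and all 9 villus markers rose for each. The part of cell composition in the integrin and laminin values was not tested. Mesenchymal markers, of which 3 of 9 were listed in both tables, summed to 4.88 to 5.84 CPM in control, 5.55 to 7.29 CPM in the Hdac1 mutant and 5.39 to 6.15 CPM in the Hdac2 mutant. Endothelial markers (3 of 6 listed) summed to 1.38 to 1.88, 1.05 to 1.52 and 1.43 to 1.74 CPM, and neural and glial markers (4 of 5 listed) to 1.54 to 2.05, 1.16 to 2.13 and 1.29 to 1.7 CPM.

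Other components of the basement membrane, taken from a list of 21 genes, had median log2 fold changes of 0.76 for Hdac1 and 0.77 for Hdac2, beside 0.06 and 0.44 for the laminins. This list and those below were chosen with earlier results of these data known, so counts beside the shares of all genes test nothing. In Hdac1-deficient enteroids 6 of the 14 tested genes rose by more than 2-fold, where 6.87% of all genes did, and 0 fell so far (0 also by DESeq2 and at an unadjusted p under 0.05), where 3.71% of all genes did. In Hdac2-deficient enteroids 6 of 14 rose and 1 fell so far, where 5.45% and 2.84% of all genes did. At an adjusted p of at most 0.05 with no fold limit, 8 rose and 3 fell for Hdac1 (32.7% and 31.9% of all genes). For Hdac2 10 rose and 2 fell (31.4% and 30.9% of all genes). The collagen IV chains Col4a1 and Col4a2, which come from neighbouring genes and are assembled as one trimer, rose in both. Col4a1 was at 2.95, 3.78, 3.68 and 2.59 CPM in control, 40.6, 32.7, 33.0 and 47.3 CPM in Hdac1-deficient and 28.5, 30.6, 29.1 and 24.1 CPM in Hdac2-deficient libraries. It rose by 3.56 (SE 0.18, adjusted p = 1.5e-07) and 3.11 (SE 0.10, adjusted p = 9.8e-15) on the log2 scale, and Col4a2 rose by 3.45 (SE 0.15, adjusted p = 4.6e-10) and 2.78 (SE 0.09, adjusted p = 2.6e-16 by edgeR's test).

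Nid1, the nidogen that ties laminin to collagen IV, rose from 6.07 ± 1.38 to 27.0 ± 3.14 CPM in Hdac1-deficient and to 23.8 ± 2.91 CPM in Hdac2-deficient enteroids, with log2 fold changes of 2.16 (SE 0.13, adjusted p = 5.8e-08) and 1.98 (SE 0.14, adjusted p = 7.6e-07 by edgeR's test). Smoc1, a calcium-binding basement membrane protein, was at 0.0418 ± 0.0635 CPM in control and 3.60 ± 0.35 CPM in Hdac1-deficient enteroids (log2 fold change 6.22, SE 0.34, adjusted p = 3e-12), and was not tested for Hdac2, at 0.218 ± 0.14 CPM. Frem2 and Fras1 encode proteins of one basement membrane complex. Frem2 fell from 7.04 ± 0.847 to 3.90 ± 0.494 CPM in Hdac1-deficient and to 0.424 ± 0.202 CPM in Hdac2-deficient enteroids, by 0.84 (SE 0.11, adjusted p = 1.5e-06) and 3.99 (SE 0.19, adjusted p = 2.1e-13) on the log2 scale. Fras1 rose by 1.48 (SE 0.14, adjusted p = 1e-08) in Hdac2-deficient enteroids and was at 0.28 (SE 0.16, adjusted p = 0.13) in Hdac1-deficient enteroids. Directly compared, 2 of 15 genes were more than 2-fold higher in the Hdac1 mutant than in the Hdac2 mutant (Frem2 and Smoc1, with 2.74% of all genes) and 2 were lower (Col4a5 and Fras1, with 2.89% of all genes). Col4a5 was at -0.95, under 2-fold, without Hdac1-deficient replicate 3.

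**Figure D5:**
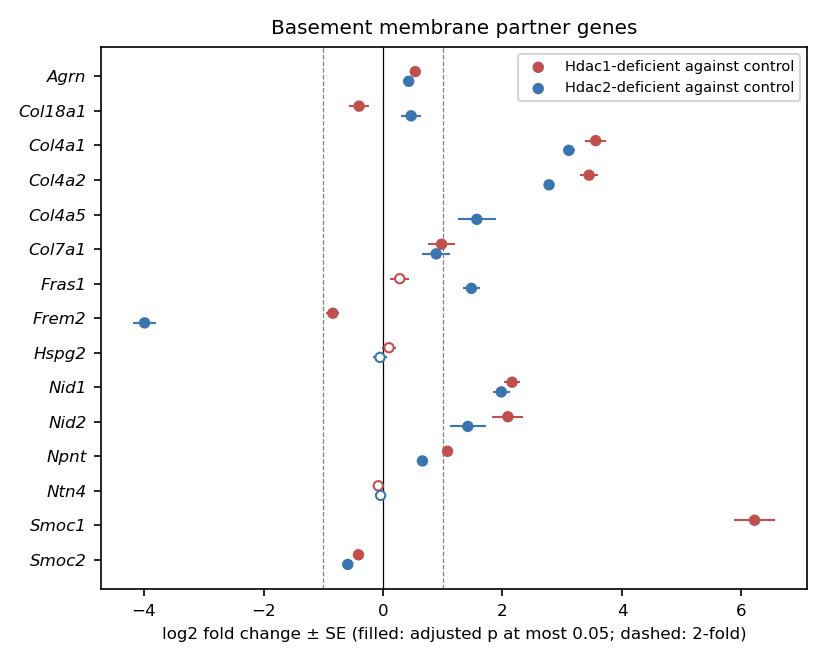
Log2 fold changes with their SE for the basement membrane partner genes, for each mutant against control (filled points, adjusted p of at most 0.05, dashed lines, 2-fold). Col4a1 and Col4a2 lie between 2.78 and 3.56 in both mutants, Smoc1 is at 6.22 for Hdac1 and Frem2 at -3.99 for Hdac2.

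Of 8 hemidesmosome and laminin-binding genes, Col17a1, Krt5 and Krt14 were not tested. Col17a1 had at most 6 reads in any library and Krt5 at most 4, and Krt14 was listed for Hdac1 only. Of the 5 tested, Bcam, Dst and Plec rose in both mutants, where 32.7% of all genes rose for Hdac1 and 31.4% for Hdac2. Among the 5, 0 fell (0 also by DESeq2 and at an unadjusted p under 0.05), where 31.9% and 30.9% of all genes did. The tetraspanin Cd151 was at log2 fold changes of 0.03 (SE 0.04, adjusted p = 0.42) and 0.05 (SE 0.03, adjusted p = 0.17 by edgeR's test), and the laminin receptor Dag1 at -0.04 (SE 0.04, adjusted p = 0.36) and 0.00 (SE 0.03, adjusted p = 0.97). Plec, which links β4 to keratin, was at 106.0, 145.3, 133.5 and 129.0 CPM in control, 213.1, 184.3, 183.9 and 212.1 CPM in Hdac1-deficient and 228.2, 218.0, 239.5 and 256.7 CPM in Hdac2-deficient libraries. It rose by 0.64 (SE 0.10, adjusted p = 0.0008) and 0.89 (SE 0.10, adjusted p = 0.00023) on the log2 scale. Dst rose by 0.71 (SE 0.12, adjusted p = 0.001) and 0.64 (SE 0.12, adjusted p = 0.003 by edgeR's test), and Bcam, a receptor of the α5 laminin chain, by 0.42 (SE 0.06, adjusted p = 3e-06) and 0.41 (SE 0.06, adjusted p = 1.1e-05). Among 29 tested genes of integrin activation and the adhesion plaque, 0 changed by more than 2-fold (0 also by DESeq2 and at an unadjusted p under 0.05). Of all genes 6.87% rose and 3.71% fell so far for Hdac1, and 5.45% and 2.84% for Hdac2. With no filter on low counts, 1 gene of the list rose by more than 2-fold for Hdac1. With no fold limit, 13 rose and 10 fell for Hdac1 (32.7% and 31.9% of all genes). For Hdac2 11 rose and 8 fell (31.4% and 30.9% of all genes).

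Ligands of integrins other than laminins rose in part, and some fell by less than 2-fold. Of 8 tested for Hdac1, 4 rose by more than 2-fold (6.87% of all genes), namely Ctgf (1.02, SE 0.17, adjusted p = 2.6e-05, and between 0.91 and 1.00 without control replicate 2, control replicate 3, Hdac1-deficient replicate 2 or Hdac1-deficient replicate 4) and, with larger changes, Vcam1 (log2 fold change 2.59, SE 0.39, adjusted p = 7.3e-06), Icam1 (2.09, SE 0.29, adjusted p = 3.7e-06) and Thbs1 (1.25, SE 0.08, adjusted p = 8.9e-11). Of 7 tested for Hdac2, 3 rose so far (5.45% of all genes), namely Icam1 (1.63, SE 0.32, adjusted p = 0.00019), Ctgf (1.29, SE 0.17, adjusted p = 3e-06) and Thbs1 (1.24, SE 0.10, adjusted p = 3.6e-10). In both cases 0 fell by more than 2-fold, also by DESeq2 and at an unadjusted p under 0.05, where 3.71% and 2.84% of all genes did. With no fold limit 2 fell in each mutant (31.9% and 30.9% of all genes). For Hdac1 these were Tgfb1 (-0.86, SE 0.09, adjusted p = 7.2e-08) and Cyr61 (-0.62, SE 0.08, adjusted p = 2e-06 by edgeR's test). Vcam1 was near the limit of detection in control, at 0.111 ± 0.0719 CPM, and at 0.663 ± 0.128 CPM in Hdac1-deficient enteroids. Among 12 tested matrix proteases and inhibitors, Timp3 rose in both mutants (2.54, SE 0.18, adjusted p = 1.3e-10, and 1.41, SE 0.22, adjusted p = 8.3e-06), and Adamts1 fell by 1.28 (SE 0.35, adjusted p = 0.003) in Hdac1-deficient enteroids. Mmp14, a membrane protease of matrix, rose from 11.6 ± 1.06 to 47.5 ± 2.1 CPM in Hdac2-deficient enteroids (2.04, SE 0.06, adjusted p = 1.7e-17) and to 20.9 ± 1.21 CPM in Hdac1-deficient enteroids (0.86, SE 0.07, adjusted p = 9.2e-10 by edgeR's test). In the direct comparison Vcam1 (1.72, SE 0.43, adjusted p = 0.002), Timp2 (1.16, SE 0.10, adjusted p = 4.8e-10) and Timp3 (1.12, SE 0.15, adjusted p = 1e-06) were higher in Hdac1-deficient enteroids and Mmp14 was lower (-1.18, SE 0.05, adjusted p = 6.6e-16).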

How the data were processed

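RNA-Seq was done on poly(A) RNA of 12 enteroid libraries (paired reads of 100 nucleotides). Per the submitters' processing notes, reads were aligned to GRCm38 with STAR 2.4.0f1; the counting program is not given in the sources used here. The authors deposited 1 table per mutant, with raw counts per gene for that mutant's 4 libraries and the same 4 control libraries, where a gene's counts had to add up to 10 or more. Columns of normalized values and of the authors' comparisons (fold change, average CPM, p-values) were not used.

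The test was edgeR's quasi-likelihood F test (edgeR 4.0.16, R 4.3.3) with robust fits, TMM factors and filterByExpr, adjusted by Benjamini-Hochberg over 14246 genes (Hdac1), 14007 (Hdac2) and 14510 (direct, all 12 libraries, genes in both tables). The biological coefficient of variation was 0.0425, 0.0384 and 0.0394. CPM used the TMM library sizes of all 12 libraries, and RPKM the merged exons of GENCODE M21, which held 99.4% of gene identifiers. Genes were named by rule: every member except 1 that is counted in the totals but not reported here, values per library at 1 CPM or more, and up to 3 genes past 2-fold per related list and comparison. Members and lists were chosen with earlier results of these data known. The depth limits precision, as 3 counts are 0.0979 to 0.145 CPM. Alternatives were DESeq2 1.42.0, other scalings, filters, thresholds, the replicate number as a block, and each library left out. The scripts were tested on simulated data.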

Additional observations from a re-analysis of the deposited data

Results flagged for a closer look

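In groups of 4 libraries, 1 library lay far from the other 3 in 4 of 75 gene and group combinations checked, and about 1 in 20 would do so by chance. For Itga4, Hdac1-deficient replicate 1 had 0.0 CPM, the lowest of its group. For Itga5, Hdac1-deficient replicate 3 was low at 2.92 CPM and Hdac2-deficient replicate 4 was high at 4.16 CPM. For Lamb1, Hdac1-deficient replicate 3 was high at 2.26 CPM.

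In the direct test the Hdac1-deficient and Hdac2-deficient libraries differed for 10 of the genes reported here. Of the 21 genes tested, with 1 not reported here counted, 1 was higher and 10 were lower in the Hdac1 mutant. Of all tested genes 22.3% were higher and 23.7% lower, and deletion cannot be told apart from mouse and line. Hdac1-deficient minus Hdac2-deficient enteroids gave log2 differences of -1.55 for Lamb1, -1.34 for Itga7, -1.29 for Lama3, -1.21 for Itga1, -0.81 for Lamb3, -0.32 for Itgb4, -0.25 for Itgb6, -0.21 for Itga6, -0.21 for Itgb1 and 0.58 for Lamb2.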

How the results depend on the processing

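No result reversed. With no limit on the fold change the counts of integrin and laminin genes became 8 higher and 6 lower for Hdac1, 11 higher for Hdac2, and 1 higher and 10 lower in the direct comparison. Genes of the related lists then numbered 33 higher (from 11) and 18 lower (from 1) for Hdac1, where 32.7% and 31.9% of all genes passed. These lists held 14, 5, 29, 8 and 12 genes tested for Hdac1. For Hdac2 33 were higher (from 11) and 13 lower (from 1), where 31.4% and 30.9% of all genes passed. In the direct comparison 13 were higher (from 5) and 22 lower (from 3), where 22.3% and 23.7% of all genes passed. As the lists were chosen with earlier results known, these counts test nothing. With no filter on low counts, 17 related genes were higher for Hdac2. Lama4 was then higher for Hdac1 (log2 3.06, adjusted p = 1e-05, for 3 members rather than 2) and in the direct comparison (log2 1.62, adjusted p = 0.0021 by edgeR's test, 1 member), and Itga4 for Hdac2 (log2 3.07, adjusted p = 0.00064, 3 members rather than 2). Lama4 was also higher for Hdac1 in the 6 fits without 1 library that tested it (log2 2.75 to 3.81). Leaving out 1 library each, the members lower for Hdac1 numbered 1 to 2, the members higher in the direct comparison 0 to 1, which was Lama4 tested in 9 of those fits, and the related genes lower in the direct comparison 3 to 5. The count for Hdac1 was 1 without control replicate 2, control replicate 3 or Hdac1-deficient replicate 1, and the related count was 5 without Hdac1-deficient replicate 1, Hdac1-deficient replicate 4 or Hdac2-deficient replicate 3; the cause was not tested. Of the members' log2 fold changes, 985 kept their side of the threshold under an alternative, 23 passed it newly and 4 lost it, all 4 of Lama5 for Hdac1.

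Same-numbered libraries showed little shared deviation (12 pairs, r from -0.0455 to 0.0913, 0 over 0.1), and 5 of 12 libraries correlated best with their own number. The labels do not say whether same-numbered libraries were handled together, and these correlations cannot decide it. With the replicate number as a block the counts of members were 2 higher and 2 lower for Hdac1, 2 higher and 0 lower for Hdac2, and 0 higher and 4 lower in the direct comparison, as without it. Lama5 had an adjusted p of 0.061 for Hdac1 and 0.00048 for Hdac2 in edgeR's fit with the block.

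Counting error limits genes under about 0.145 CPM most, and also genes above it with few reads, such as Itga2b with 7 to 16 per control library. With 1 mouse per genotype no comparison separates genotype from line.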
